A study of Arabidopsis thaliana with 48 samples.

Results

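Class III peroxidases are secreted haem enzymes of plants, and 60 genes of this family are described here in 12-day-old Arabidopsis thaliana seedlings of the acc1-5 mutant and of wild type (WT). The 60 genes were taken by their locus identifiers from the table of transcript levels, which lists 33553 genes, and where a gene had several transcripts the one most abundant over both genotypes stood for it. PRX numbers are those of the published naming of the 73-gene family and are not in the files; the other 13 family genes form a separate list. Both genotypes are of the Col-0 ecotype, and acc1-5 is an allele of ACC1, the gene of the cytosolic acetyl-CoA carboxylase, which turns acetyl-CoA into malonyl-CoA. Seedlings grew on 1/2 MS plates in a 16 h light period followed by 8 h of darkness. The labels give 3 acc1-5 and 3 WT RNA libraries made from whole seedlings, next to 42 chromatin or input libraries of the same series that are not used here. A spray of DMSO or 20 µM β-estradiol for 24 h is written in the labels of every sample, so it is not clear from them whether seedlings for RNA were sprayed. The labels do not say what acc1-5 changes in the gene, nor whether libraries of a genotype came from separately grown seedlings.

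Class III peroxidases oxidise phenolic compounds with hydrogen peroxide in the cell wall and vacuole. They couple monolignols into lignin, cross-link extensins and other wall proteins, and can also produce reactive oxygen species, so they may stiffen or loosen a wall depending on their substrates. NADPH oxidases of the RBOH family supply much of the apoplastic superoxide from which hydrogen peroxide forms. In seedlings many family members are known from roots, where they act in root hair growth and in the lignin of the Casparian strip, the diffusion barrier of the endodermis. The Arabidopsis family grew by duplication, and neighbouring copies are common.

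Transcript levels are in FPKM, a read density corrected for how long a transcript is and how deeply its library was sequenced, with 1 value per genotype and the authors' lower and upper confidence bounds in brackets. The tables hold no values of single libraries, so the spread between libraries cannot be shown. A gene is called higher or lower in acc1-5 where the authors' program, Cuffdiff, tested it and their q-value was under 0.05. There is no further replicate check behind these calls, and the depth of the libraries is unknown. ACC1 itself had 33.4 FPKM (21.4 to 45.4) in acc1-5 and 33.1 FPKM (21.6 to 44.7) in WT, with q = 0.991 in the authors' deposited table. Leaf genes marked both genotypes as containing green tissue, with RBCS1A at 5028 FPKM (245 to 9816) in acc1-5 and 9403 FPKM (0.165 to 28301) in WT, where its bounds leave the level nearly undetermined. Of 4 green leaf markers, 1 fell and 0 rose, while at an unadjusted p under 0.05 from Cuffdiff 2 were lower and 0 higher. The called gene was LHCB1.1, with 495 FPKM (251 to 736) in acc1-5 and 1004 FPKM (451 to 1556) in WT. The median log2 fold change of the 4 markers was -0.79. Over all 20509 tested genes, 10.9% were called higher and 9.04% lower. Markers of root cells were more abundant in acc1-5: all 8 root hair markers were called higher, with a summed level of 116 FPKM in acc1-5 and 15.2 FPKM in WT, and 11 of 13 endodermis markers were called higher, with sums of 85.7 FPKM in acc1-5 and 21.7 FPKM in WT. None of these root markers was listed at 0 in either genotype, and none of 7 xylem and secondary wall markers was called by Cuffdiff's q, while 2 were lower and 0 higher at an unadjusted p under 0.05. In RNA from whole seedlings, more cells of a type and more RNA per cell cannot be told apart. The marker lists were written with earlier results of these data known, so their counts are descriptions only. The part of the root markers in the results on peroxidases was not tested.

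Most tested peroxidase genes were higher in acc1-5 seedlings. The authors' program tested 54 of the 60 genes, and 36 of these (66.7%) were called higher in acc1-5, against 10.9% of all 20509 tested genes. Calls of lower levels concerned 4 of 54 members (7.41%), against 9.04% of all tested genes. The other 14 tested members were not called, 9 with a higher and 5 with a lower level in acc1-5. The median log2 fold change of acc1-5 over WT was 1.57 over the tested members, a 2.98-fold higher level, with an interquartile range of 0.50 to 2.32. Over all tested genes the median was -0.01, with an interquartile range of -0.30 to 0.30.

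The rises were large for much of the family. Of the 36 genes that rose, 34 had at least a 2-fold and 22 at least a 4-fold higher level in acc1-5. Calls with at least a 2-fold rise made up 63.0% of tested members and 7.83% of all tested genes, and those with at least a 2-fold fall made up 3.70% of members and 3.16% of all tested genes. The bounds of both genotypes lay apart, with acc1-5 above WT, for 28 members (51.9%), against 5.24% of all tested genes. The same separation with acc1-5 below WT was seen for 2 members (3.70%), against 1.63% of all tested genes. For 33 members the q-value was 0.000746 in the authors' deposited table, the smallest it holds, so the order of these genes by q cannot be told. Summed over the 60 genes, the level was 5865 FPKM in acc1-5 and 2967 FPKM in WT, a ratio of 1.98.

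**Figure D1:**
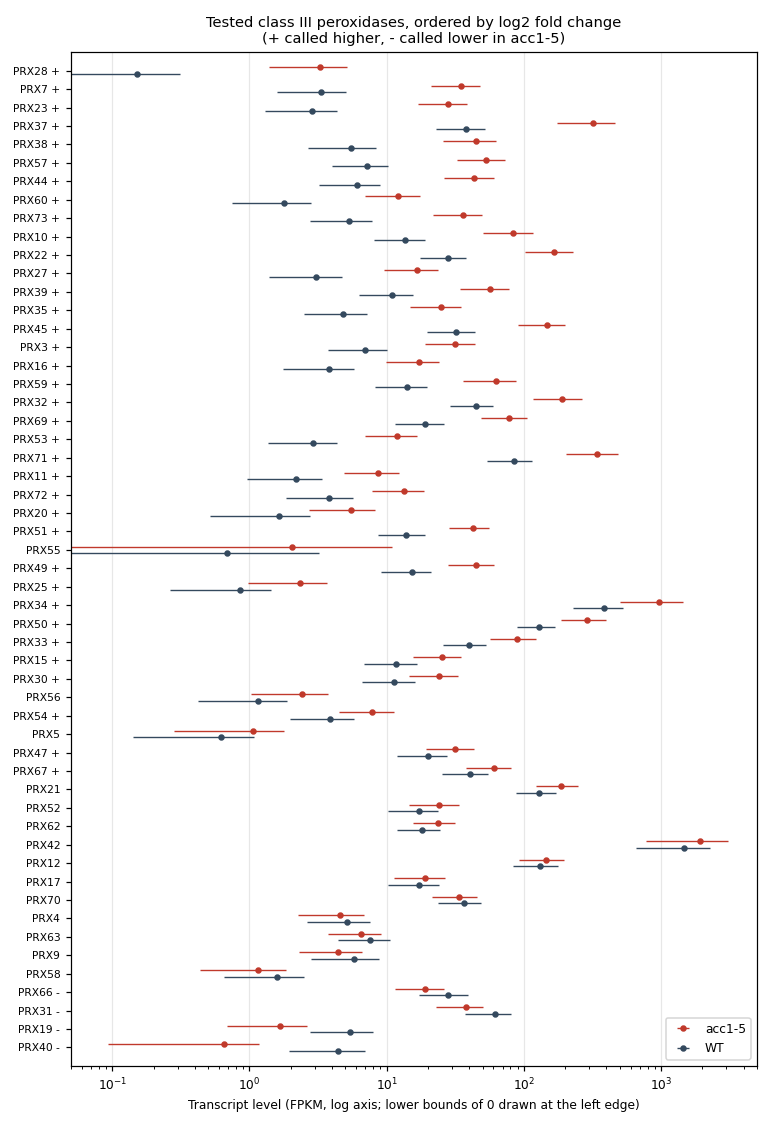
Levels of the 54 tested peroxidases in acc1-5 (red, upper of each pair) and WT (dark blue, lower) in FPKM on a log axis, with the authors' confidence bounds as bars, ordered by log2 fold change. Red points lie right of the blue ones for 45 genes, most clearly from PRX28 at the top to PRX72, while PRX66, PRX31, PRX19 and PRX40 at the bottom were called lower.

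**Figure D2:**
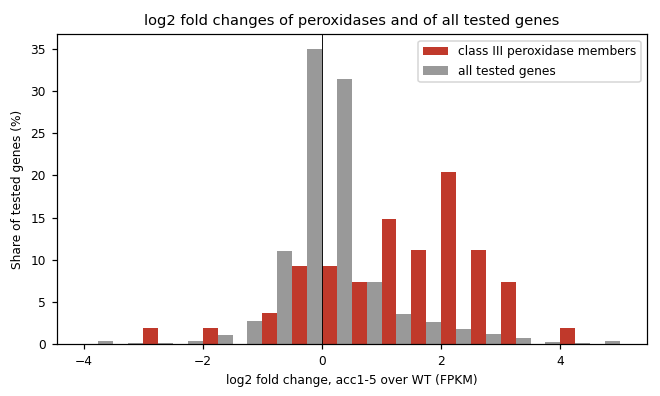
Share of tested genes per bin of 0.5 of the log2 fold change (acc1-5 over WT), for peroxidase members (red, n = 54) and all tested genes (grey, n = 20509), with values beyond the axis in the end bins. The members' median of 1.57 lies right of the median of all genes, -0.01.

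Most peroxidases of root hairs rose. Of the 9 members placed in this role group, 7 rose, 1 was not called and 1 was not tested. The share called higher over all tested genes was 10.9%. The median log2 fold change of the 8 tested genes of the group was 2.76. PRX7 (AT1G30870; chromosome 1, 10991485 to 10993023 on TAIR10) had 34.6 FPKM (21.1 to 48.0) in acc1-5 and 3.33 FPKM (1.57 to 5.09) in WT, a 10.4-fold difference. PRX44 (AT4G26010), which acts with PRX1 and PRX73 in root hair growth, had 43.5 FPKM (26.4 to 60.4) in acc1-5 and 6.06 FPKM (3.24 to 8.87) in WT. PRX73 (AT5G67400), annotated in RefSeq as RHS19, a root hair specific gene, had 35.9 FPKM (21.8 to 49.3) in acc1-5 and 5.32 FPKM (2.75 to 7.81) in WT. For each of these 3 genes the lower bound in acc1-5 lay above the upper bound in WT.

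PRX60 (AT5G22410), another root hair specific gene named RHS18, was the least abundant root hair peroxidase that rose, with 12.2 FPKM (6.92 to 17.4) in acc1-5 and 1.78 FPKM (0.749 to 2.82) in WT. PRX57 (AT5G17820) had 52.9 FPKM (32.7 to 72.9) in acc1-5 and 7.15 FPKM (4.01 to 10.3) in WT. PRX35 (AT3G49960) had 24.7 FPKM (14.7 to 34.7) in acc1-5 and 4.81 FPKM (2.52 to 7.13) in WT. The bounds of the genotypes were apart for these genes too, and the folds of all 3 lay between 5.14 and 7.40. PRX62 and PRX69 are known to promote root hair growth in the cold, but only PRX69 was called. PRX69 (AT5G64100) had 78.2 FPKM (48.5 to 106) in acc1-5 and 19.1 FPKM (11.6 to 26.0) in WT, whereas PRX62 (AT5G39580) had 23.7 FPKM (15.6 to 31.7) in acc1-5 and 18.1 FPKM (11.8 to 24.4) in WT and was not called (q = 0.231 in the authors' deposited table). Whether the responses of these 2 genes differ was not tested. PRX1 was near 0 in both genotypes. Beside these values, the 8 root hair markers that are not peroxidases had a median log2 fold change of 2.90.

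Peroxidases of the Casparian strip rose in 3 of 4 cases, against 10.9% of all tested genes. PRX3, PRX9, PRX39 and PRX72 act with PRX64 in the lignification of this barrier in the root endodermis. PRX39 (AT4G11290; chromosome 4, 6869953 to 6871661) had 56.6 FPKM (34.3 to 78.2) in acc1-5 and 11.0 FPKM (6.31 to 15.6) in WT. PRX3 (AT1G05260), also called RCI3 after its induction by cold, had 31.7 FPKM (19.1 to 44.0) in acc1-5 and 6.98 FPKM (3.75 to 10.1) in WT. PRX72 (AT5G66390) had 13.3 FPKM (7.76 to 18.6) in acc1-5 and 3.80 FPKM (1.86 to 5.72) in WT. The bounds did not overlap for these 3 genes, with folds of 5.14 for PRX39, 4.55 for PRX3 and 3.50 for PRX72. PRX9 (AT1G44970) had 4.45 FPKM (2.29 to 6.62) in acc1-5 and 5.76 FPKM (2.82 to 8.74) in WT, so its bounds overlapped widely (q = 0.548 in the authors' deposited table). PRX64, which is outside the 60 genes, had 6.21 FPKM (0.664 to 11.7) in acc1-5 and 2.83 FPKM (0 to 6.12) in WT and was not called (q = 0.477 in the authors' deposited table), with the widest bounds of these 5 genes relative to their levels. The 12 tested endodermis markers had a median log2 fold change of 1.98.

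Some peroxidases linked to lignin in stems and vessels rose. Of 9 such genes, 4 rose, 1 fell, 3 were not called and 1 was not tested, and the median log2 fold change of the 8 tested genes was 0.57. Among all tested genes 10.9% were called higher and 9.04% lower, so the 1 fall is not read as a result. PRX71 (AT5G64120; chromosome 5, 25659306 to 25661002) had 344 FPKM (204 to 484) in acc1-5 and 85.0 FPKM (53.8 to 115) in WT, and was the most abundant gene of the group in both genotypes. PRX25 (AT2G41480) had 2.32 FPKM (0.980 to 3.66) in acc1-5 and 0.858 FPKM (0.264 to 1.43) in WT (q = 0.0114 in the authors' deposited table). PRX72, given above, was the third gene of the group that rose by more than 2-fold.

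The pair of peroxidases associated with xylem vessels split. PRX47 (AT4G33420) was called higher, with 31.4 FPKM (19.3 to 43.4) in acc1-5 and 19.9 FPKM (12.0 to 27.6) in WT (q = 0.0114 in the authors' deposited table). PRX66 (AT5G51890) was called lower, with 19.0 FPKM (11.4 to 26.4) in acc1-5 and 28.1 FPKM (17.3 to 38.9) in WT (q = 0.0341 in the authors' deposited table). Both changes were under 2-fold and the bounds of the genotypes overlapped. PRX52, PRX17 and PRX4 were not called: PRX52 had 24.2 FPKM in acc1-5 and 17.2 FPKM in WT, PRX17 had 19.0 FPKM in acc1-5 and 17.2 FPKM in WT, and PRX4 had 4.59 FPKM in acc1-5 and 5.13 FPKM in WT. PRX2 was not tested. The 7 xylem and secondary wall markers, none of them called, had a median log2 fold change of -0.23.

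Peroxidases of defence and of the oxidative burst rose in 4 of 8 cases, against 10.9% of all tested genes. The group's median log2 fold change was 0.96. PRX34 (AT3G49120; chromosome 3, 18207651 to 18210132), which with PRX33 contributes to the oxidative burst after contact with microbes, was the second most abundant member in both genotypes. It had 972 FPKM (503 to 1437) in acc1-5 and 384 FPKM (228 to 533) in WT, a 2.53-fold difference with bounds that overlapped slightly. PRX33 (AT3G49110) had 89.7 FPKM (56.5 to 123) in acc1-5 and 40.0 FPKM (25.6 to 53.4) in WT, with bounds just apart. PRX33, PRX34 and PRX32 have similar sequences, so reads may be split between them and their single levels are uncertain.

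PRX37 (AT4G08770; chromosome 4, 5598115 to 5600312), which dwarfs plants when overexpressed, rose most in this group. It had 320.2 FPKM (174 to 466) in acc1-5 and 37.7 FPKM (23.1 to 51.9) in WT, an 8.48-fold difference. The level in acc1-5 made it the fourth most abundant member there, while it ranked 11 in WT. PRX4 and PRX5, which respond to microbial elicitors, stayed low in both genotypes: PRX5 had 1.05 FPKM (0.281 to 1.78) in acc1-5 and 0.619 FPKM (0.141 to 1.08) in WT, and its q was 0.439 in the authors' deposited table. PRX71 and PRX62 belong to this group too, and PRX71 rose while PRX62 was not called.

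Falls were called for 4 tested members (7.41%), near the 9.04% of all tested genes. Of these, PRX40 and PRX66 are in a role group and PRX19 and PRX31 are in none. PRX40 (AT4G16270; chromosome 4, 9204839 to 9206552), which with PRX9 cross-links extensins in the tapetum of anthers, fell most. It had 0.653 FPKM (0.0933 to 1.17) in acc1-5 and 4.45 FPKM (1.95 to 7.00) in WT, so the WT level was 6.81 times as high and the bounds were apart. With 1 FPKM added to each level, its log2 fold change was -1.72 in place of -2.77. Its locus in the tables also holds AT4G16267, listed at 0 in both genotypes. PRX19 (AT2G34060; chromosome 2, 14384896 to 14386669) had 1.66 FPKM (0.681 to 2.65) in acc1-5 and 5.36 FPKM (2.76 to 7.94) in WT, again without overlap. PRX31 (AT3G28200) fell to 37.7 FPKM (22.9 to 50.4) in acc1-5, against 61.2 FPKM (37.1 to 81.3) in WT, with overlapping bounds (q = 0.00398 in the authors' deposited table). The fourth gene that fell was PRX66. Among the other genes of anthers and seeds, PRX16 (AT2G18980), which acts in seed germination, rose to 17.3 FPKM (9.88 to 24.2) in acc1-5, against 3.80 FPKM (1.77 to 5.76) in WT. PRX36, which loosens the seed coat wall for mucilage release, was listed at 0 in WT and had 0.0292 FPKM in acc1-5, and was not tested.

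The 32 members outside these role groups mostly rose too. Of these, 19 rose, 2 fell, 8 were not called and 3 were not tested, with a median log2 fold change of 1.56. Among all tested genes 10.9% were called higher and 9.04% lower, so the 2 falls are not read as a result. PRX23 (AT2G38390) had 27.9 FPKM (17.0 to 38.6) in acc1-5 and 2.85 FPKM (1.30 to 4.37) in WT, a 9.82-fold difference. PRX38 (AT4G08780) had 45.1 FPKM (25.7 to 63.2) in acc1-5 and 5.52 FPKM (2.66 to 8.36) in WT. PRX10 (AT1G49570) had 83.9 FPKM (50.2 to 117) in acc1-5 and 13.6 FPKM (8.09 to 19.0) in WT. In each of these 3 genes acc1-5 stood above WT with no overlap of the bounds. PRX22 (AT2G38380) reached 166 FPKM (101 to 229) in acc1-5, against 27.9 FPKM (17.6 to 38.0) in WT, and PRX45 (AT4G30170) 147 FPKM (90.6 to 200.3) in acc1-5, against 32.3 FPKM (19.8 to 44.2) in WT. PRX32 (AT3G32980), near in sequence to PRX33 and PRX34, had 192 FPKM (116 to 265) in acc1-5 and 44.8 FPKM (28.9 to 60.1) in WT.

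The other genes of these 32 that rose, apart from PRX28 described later, were PRX27, PRX59, PRX53, PRX11, PRX20, PRX51, PRX49, PRX50, PRX15, PRX30, PRX54 and PRX67, whose folds lay between 1.5 for PRX67 and 5.45 for PRX27. PRX53 (AT5G06720) is annotated in RefSeq as PA2, and it had 11.8 FPKM (6.92 to 16.6) in acc1-5 and 2.90 FPKM (1.36 to 4.38) in WT. PRX50 (AT4G37520), an abundant member, had 291 FPKM (187 to 394) in acc1-5 and 128 FPKM (88.6 to 168) in WT, without overlap. The uncalled members of these 32 were PRX42, PRX12, PRX21, PRX55, PRX56, PRX58, PRX63 and PRX70. PRX55 (AT5G14130) had the largest uncalled log2 fold change, 1.59 in the authors' deposited table and 0.86 with 1 FPKM added, with 2.05 FPKM (0 to 10.9) in acc1-5 and 0.683 FPKM (0 to 3.21) in WT. Its locus in the tables also holds AT5G14120, at 157 FPKM in acc1-5 and 212 FPKM in WT, and the bounds of PRX55 reached 0 in both genotypes.

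Several of the most abundant members were not called. PRX42 (AT4G21960; chromosome 4, 11646174 to 11648462) had 1926 FPKM (772 to 3079) in acc1-5 and 1481 FPKM (662 to 2298) in WT, and was not called (q = 0.659 in the authors' deposited table). PRX42 alone made up 32.8% of the family's summed FPKM in acc1-5 and 49.9% in WT. Without it, the sum of the other 59 genes was 3938 FPKM in acc1-5 and 1486 FPKM in WT, a ratio of 2.65. PRX12 (AT1G71695), with 145 FPKM (92.1 to 197) in acc1-5 and 130.3 FPKM (83.3 to 177) in WT, and PRX21 (AT2G37130), with 185 FPKM (123 to 248) in acc1-5 and 129 FPKM (87.5 to 171) in WT, were not called either. The q-value of PRX21 was 0.0559 in the authors' deposited table.

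By WT level, 11 of 14 members between 1 and 5 FPKM rose and 1 fell, 14 of 21 members between 5 and 20 FPKM rose and 1 fell, and 9 of 15 members at 20 FPKM or more rose and 2 fell. The median log2 fold change of tested members was 2.01, 1.56 and 1.16 in these 3 classes, and 1.51 in the class under 1 FPKM, where 2 of 4 tested members rose. Whether the classes differ was not tested, and the WT level is a part of the fold change. Among all tested genes of any level 10.9% were called higher and 9.04% lower, so the few falls are not read as a result. Shares of all genes by WT level were not computed. Members with at least 10 FPKM numbered 40 in acc1-5 and 27 in WT.

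The order of the levels shifted with these changes. In acc1-5 the 5 most abundant members were PRX42, PRX34, PRX71, PRX37 and PRX50, and in WT they were PRX42, PRX34, PRX12, PRX21 and PRX50. PRX12 ranked 10 in acc1-5 and 3 in WT, PRX31 ranked 22 in acc1-5 and 7 in WT, and PRX22 ranked 8 in acc1-5 and 15 in WT. Some neighbours in these orders lay within each other's bounds: in acc1-5, PRX71 (204 to 484), PRX37 (174 to 466) and PRX50 (187 to 394) overlapped in FPKM, and in WT, PRX12 (83.3 to 177), PRX21 (87.5 to 171) and PRX50 (88.6 to 168) did.

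Near absence in WT was a mark of 10 members, taken as a WT level under 1 FPKM. The highest of them was PRX25 at 0.858 FPKM in WT, and the lowest member above the limit was PRX56 at 1.15 FPKM in WT. Only 2 of the 10 were called higher, 2 were not called and 6 were not tested for low values or too few data. The share called higher over all tested genes was 10.9%. PRX28 (AT3G03670; chromosome 3, 901841 to 903411) was the clearest case of a gene present in acc1-5 and near absent in WT. It had 3.28 FPKM (1.39 to 5.14) in acc1-5 and 0.151 FPKM (0 to 0.309) in WT, a 21.7-fold difference (q = 0.00690 in the authors' deposited table). This was the largest fold of the called members without a pseudocount, but with 1 FPKM added to each level the log2 fold change of PRX28 was 1.89 in place of 4.44, below those of PRX37 (3.05) and PRX7 (3.04). The other called gene was PRX25, whose log2 fold change was 0.84 in place of 1.44 with 1 FPKM added. PRX5 and PRX55 also reached 1 FPKM in acc1-5 but were not called.

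The remaining 6 were under 1 FPKM in both genotypes. PRX14 and PRX43 were listed at 0 in acc1-5 and in WT, PRX68 had 0.342 FPKM in acc1-5 and 0.338 FPKM in WT, and PRX36 is given above. PRX1 had 0.0133 FPKM in acc1-5 and 0.0149 FPKM in WT, and PRX2 had 0.0511 FPKM in acc1-5 and 0.0138 FPKM in WT. PRX1 and PRX2 are neighbouring copies with near-identical coding sequences, and PRX43 shares its locus in the tables with AT4G25970, so low levels of these 3 genes are uncertain.

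Neighbouring copies were not always called alike. Counting genes with at most 1 other protein-coding gene between them, 24 of the 60 members lay in 11 tandem arrays. In 5 arrays every member rose: PRX22 with PRX23, PRX33 with PRX34, PRX37 with PRX38, PRX50 with PRX51, and PRX53 with PRX54. In the authors' deposited table the log2 fold changes of the pair were 3.08 for PRX37 and 3.03 for PRX38, although PRX37 was the more abundant gene in both genotypes. In 5 other arrays a gene that rose lay beside a gene that was not called or not tested, and in the array of PRX4 and PRX5 neither gene was called. Of these neighbours, PRX58 and PRX70 were tested and not called. PRX1, PRX2, PRX14 and PRX68 were under 1 FPKM in both genotypes and not tested, so their arrays cannot show an unlike change.

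The array of PRX69, PRX70 and PRX71 on chromosome 5 held 2 genes that rose around an uncalled gene in the middle. PRX70 (AT5G64110; 25654074 to 25656030) had 33.7 FPKM (21.2 to 45.9) in acc1-5 and 36.7 FPKM (23.6 to 49.0) in WT, while PRX69 and PRX71 had folds of 4.09 and 4.05. PRX59 (AT5G19890) had 62.3 FPKM (36.2 to 88.3) in acc1-5 and 13.98 FPKM (8.22 to 19.7) in WT, and its neighbour PRX58 had 1.15 FPKM (0.436 to 1.85) in acc1-5 and 1.59 FPKM (0.654 to 2.51) in WT. PRX15 rose beside PRX14, which was listed at 0, and PRX67 rose beside PRX68. The differences in response between neighbours were not tested, and reads shared by similar copies could move their single levels. Outside the arrays, 20 of 34 tested members rose and 4 fell, against 10.9% called higher and 9.04% called lower of all tested genes.

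**Figure D3:**
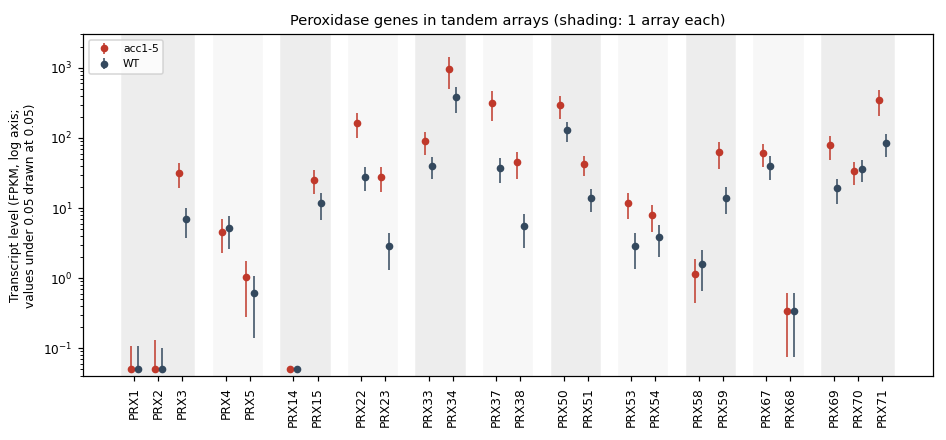
Levels in FPKM (log axis) of the 24 peroxidases in 11 tandem arrays, with acc1-5 in red left of WT in dark blue, bars for the authors' bounds, and values under 0.05 drawn at 0.05. Both copies of PRX37 and PRX38 stand higher in acc1-5, whereas PRX70 overlaps between the genotypes next to PRX69 and PRX71.

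Only 5 of the 60 genes had a second annotated transcript in the tables, and in each the main transcript held most of the level in both genotypes. PRX21 had the most abundant second transcript, with 17.9 FPKM (0.0494 to 42.4) in acc1-5 and 12.2 FPKM (0.0490 to 27.2) in WT. The second transcripts of PRX20, PRX50, PRX51 and PRX62 lay under 1 FPKM in both genotypes. No second transcript was called.

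Some of the 13 other genes of the family rose too. Of these 13 genes, 4 rose, 0 fell, 4 were not called and 5 were not tested. Over all 20509 tested genes, 10.9% were called higher and 9.04% lower, so with 8 tested genes the lack of falls is not read as a result. PRX8 had 11.1 FPKM (6.26 to 15.9) in acc1-5 and 1.08 FPKM (0.375 to 1.76) in WT, a 10.3-fold difference. PRX24 had 1.59 FPKM in acc1-5 and 0.236 FPKM in WT, PRX61 had 1.33 FPKM in acc1-5 and 0.119 FPKM in WT, and PRX26 had 0.900 FPKM in acc1-5 and 0.183 FPKM in WT. These 3 genes rose at low levels. Over all 73 genes, 40 of 62 tested genes rose and 4 fell.

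Most genes of the NADPH oxidases and of monolignol synthesis rose as well. Over all 20509 tested genes, 10.9% were called higher. Of 10 NADPH oxidase genes, 7 rose, 1 was not called and 2 were listed at 0 and not tested, with a median log2 fold change of 1.88 over the 8 tested genes. RBOHC, the oxidase of root hair tips, had 5.86 FPKM (3.74 to 7.97) in acc1-5 and 1.36 FPKM (0.6996 to 2.01) in WT. RBOHF, which supplies the Casparian strip peroxidases, had 13.8 FPKM (9.64 to 17.9) in acc1-5 and 5.04 FPKM (3.35 to 6.74) in WT. RBOHF was chosen after its values were seen. Both genes had bounds that were apart. Of 18 genes of monolignol synthesis, 14 rose and 4 were not called, with a median log2 fold change of 1.09. The coumarate ligase gene 4CL5 had 17.8 FPKM (11.7 to 23.8) in acc1-5 and 4.22 FPKM (2.43 to 5.97) in WT, and 4CL2 had 35.9 FPKM (24.0 to 47.1) in acc1-5 and 9.49 FPKM (6.02 to 12.9) in WT.

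Among laccases, copper enzymes that also couple monolignols, more genes rose than fell. Of 17 genes, 7 rose, 2 fell, 6 were not called and 2 were not tested. Over all 20509 tested genes, 10.9% were called higher and 9.04% lower, so the 2 falls among 15 tested laccases are not read as a result. The median log2 fold change of the 15 tested genes was 0.24, against 1.57 for the peroxidases. LAC5 had 4.81 FPKM (2.77 to 6.82) in acc1-5 and 1.19 FPKM (0.483 to 1.88) in WT, and LAC2, which fell and was chosen after its values were seen, had 0.384 FPKM (0.109 to 0.657) in acc1-5 and 1.39 FPKM (0.635 to 2.12) in WT. LAC17 was the other gene that fell. The difference between the lists was not tested.

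**Figure D4:**
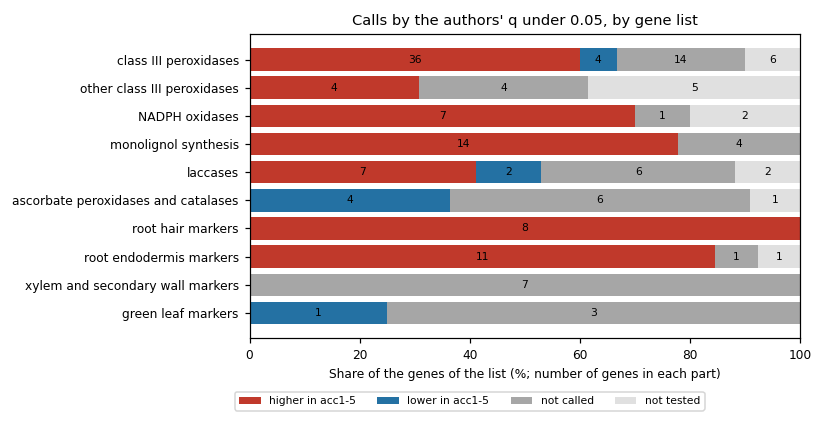
Share of the genes of each list called higher (red), called lower (blue), not called (grey) or not tested (light grey) in acc1-5 against WT, with the number of genes in each part. Called higher were 36 of 60 peroxidases, 7 of 10 NADPH oxidases and 14 of 18 monolignol genes, against 10.9% of all tested genes. The shares were larger for root hair markers (8 of 8) and endodermis markers (11 of 13), and no xylem marker was called. The lists were chosen with earlier results of these data known.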

How the data were processed

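RNA from 3 acc1-5 and 3 WT libraries was compared. The submitters' processing notes list Bowtie, TopHat 1.4.0 and, at version 2.1.1, both Cufflinks and Cuffdiff, with TAIR10 as the build. The authors deposited FPKM with confidence bounds, 1 value per genotype; the level of these bounds is not given in the sources used here. Per the file headers, the authors' second table holds the log2 fold change (acc1-5 over WT), a p-value and a q-value per transcript, and a test statistic, a score not used here. The deposited q-values equal the Benjamini-Hochberg adjustment of the p-values over the 25307 tested transcripts, within 5.27e-07. Columns named ACC1 were read as acc1-5. Depth is unknown, since no counts were given.

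Planned analyses of proteins and promoters were not run, since no sequences were at hand. PRX numbers are background knowledge of the family's published naming. Neighbours were taken from RefSeq (TAIR10.1), where all 60 genes matched. The adjustment was tested on simulated data. Folds are ratios of FPKM without pseudocount. Members, role groups and lists were chosen with earlier results of these data known. Members named in full were the 10 largest rises and all falls among called genes, the 5 most abundant, those near absent in WT that were called or reached 1 FPKM, and the role groups; others were added after their values were seen. From each other list, up to 3 called genes with the largest changes were eligible. Alternatives were another q limit, a 2-fold limit, level filters, pseudocounts, transcript choice, scaling and leaving out neighbouring copies. Python 3.11.15 and pandas 2.3.3 were used.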

Additional observations from a re-analysis of the deposited data

How the results depend on the processing

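No paired analysis was possible because the tables hold 1 value per genotype and the columns carry no replicate numbers; for the same reason no library could be left out. The alternative that leaves out copies of high protein identity was not run, since it needs protein sequences, and leaving out members beside another class III peroxidase was chosen in its place after seeing the data. That alternative holds 36 of the 60 genes, and by this construction its calls of higher levels were 20 and its calls of lower levels 4. With at least a 2-fold change the calls of lower levels were 2, and with a mean FPKM of at least 5 they were 2 as well. That mean includes the acc1-5 level, so a fall can itself take a gene below the limit. With q under 0.01, 33 members were called higher and 3 lower. The count of higher calls was 33 to 36 under the other limits on q, fold and level and the choice of transcript. The median log2 fold change lay between 1.31 (pseudocount of 1 FPKM) and 1.90 (mean FPKM of at least 5). The filter at 5 FPKM takes the mean of both genotypes, so members low in WT could pass it through their acc1-5 level. The larger median is therefore not read as a result. Members near absent in WT numbered 7 with a limit of 0.5 FPKM. No member changed direction under the scalings or summed transcripts. Scaling to equal totals moved each log2 fold change by only 0.10, and only 5 genes had a second transcript to sum. A pseudocount added to both levels cannot change a direction.

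Wide bounds limit single genes: their median half-width was 40.0% of the FPKM in acc1-5 and 43.0% in WT over tested members.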

Other observations

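Some enzymes that remove hydrogen peroxide inside the cell fell. Of 11 genes named as ascorbate peroxidases or catalases, 0 rose, 4 fell, 6 were not called and 1 was not tested. Whether each of them has this enzyme activity was not examined. Over all 20509 tested genes, 10.9% were called higher and 9.04% lower, so with 10 tested genes the lack of rises is not read as a result. The median log2 fold change of the 10 tested genes was -0.46. At an unadjusted p under 0.05 from Cuffdiff, 0 were higher and 5 lower. CAT2, the catalase of leaf peroxisomes, had 102 FPKM (70.0 to 134) in acc1-5 and 356 FPKM (135 to 576) in WT. TAPX, the ascorbate peroxidase of thylakoids, had 39.0 FPKM (25.5 to 52.2) in acc1-5 and 68.6 FPKM (45.2 to 92.0) in WT. CAT1 and APX6 fell as well. Of the uncalled genes, APX1, APX5, SAPX and CAT3 had higher values in acc1-5. CAT3, the most abundant, had 5195 FPKM (0.0536 to 17509) in acc1-5 and 3940 FPKM (119.7 to 7786) in WT, with very wide bounds, and the sum of the list was 6514 FPKM in acc1-5 and 5661 FPKM in WT. Beside these values, the 4 green leaf markers had a median log2 fold change of -0.79, and their part in these falls was not tested. The difference from the class III peroxidases was not tested.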
